A study of Mus musculus with 7 samples.

Results

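Bile duct epithelium and its progenitors were followed through 8 marker genes, *Krt7*, *Krt19*, *Sox9*, *Epcam*, *Spp1*, *Cftr*, *Prom1* and *Cd24a*, which were listed by name and looked up in a table of liver RNA-seq. All 8 were among the 14851 genes of the table, and 7 of them had a mean of at least 10 normalised counts and were tested among 12545 genes. *Cftr* fell below that filter and is described by its values. RNA came from livers of 4 *Albumin-Cre; p53 FL/FL* mice (FL) and 3 *Albumin-Cre; p53 WT/WT* mice (WT). All were male C57BL/6J mice backcrossed to N10, about 70 days old, killed 8 h after 1 intraperitoneal dose of 1 mL/kg of a 20% v/v CCl4 solution in corn oil. Both genotypes carried *Albumin-Cre*, which uses the albumin promoter to express Cre recombinase in the liver. Only the floxed *Trp53* allele therefore separated them by design. Whether bile duct cells also lost *Trp53* was not tested. A red fluorescent Cre reporter at the Rosa26 locus (LSL-tdRFP) was present in part of the mice, whether FL or WT. No uninjured liver was compared here, so the values give genotype differences after injury and not the response to CCl4. The mouse codes in the labels began differently for the WT livers and the FL livers, and what these prefixes stand for is not stated, so any effect tied to them and the genotype cannot be told apart.

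The intrahepatic bile ducts are lined by cholangiocytes, epithelial cells that carry and modify bile and arise from the same fetal precursors as hepatocytes. They hold the simple-epithelium keratins *Krt7* and *Krt19*, the adhesion molecule *Epcam* and the transcription factor *Sox9*, and in chronic injury cells with these markers spread from the portal tract as a ductular reaction. CCl4 is activated by cytochrome P450 in hepatocytes around the central vein, at the other end of the lobule. Several of these genes are also used by other epithelia, the gut among them, and *Spp1* and *Cd24a* are also found in immune cells. In whole liver, fewer cells of a type and less RNA per cell cannot be told apart.

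RefSeq promoter windows of GRCm38.p6 covered 5 of the 8 markers, and 250 bases before the transcription start were read for each. *Krt7* and *Cftr* are shown because their FL values all lay below their WT values, and *Spp1*, whose genotypes overlapped, is shown beside them. The sequences run 5′ to 3′ on the strand of the gene, and capitals mark motif letters found on either strand. The GC box was searched for as GGGCGG. The letters of the TATA box were TATAAA and those of an HNF1 half-site, where a liver transcription factor can bind, were GTTAAT. The windows lie at chr15:101412153-101412402 (*Krt7*, plus strand), chr6:18170437-18170686 (*Cftr*, plus strand) and chr5:104434861-104435110 (*Spp1*, plus strand).
Krt7: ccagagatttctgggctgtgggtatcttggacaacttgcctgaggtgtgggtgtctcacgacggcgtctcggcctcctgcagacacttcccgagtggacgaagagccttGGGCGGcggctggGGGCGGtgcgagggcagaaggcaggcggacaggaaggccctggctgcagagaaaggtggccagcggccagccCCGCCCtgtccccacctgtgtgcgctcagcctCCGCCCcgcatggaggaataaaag
Cftr: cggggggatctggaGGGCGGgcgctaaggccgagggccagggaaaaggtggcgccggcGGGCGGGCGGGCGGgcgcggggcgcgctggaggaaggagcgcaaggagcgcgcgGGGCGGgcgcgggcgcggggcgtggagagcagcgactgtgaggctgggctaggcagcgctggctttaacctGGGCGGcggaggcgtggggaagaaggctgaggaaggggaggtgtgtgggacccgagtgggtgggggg
Spp1: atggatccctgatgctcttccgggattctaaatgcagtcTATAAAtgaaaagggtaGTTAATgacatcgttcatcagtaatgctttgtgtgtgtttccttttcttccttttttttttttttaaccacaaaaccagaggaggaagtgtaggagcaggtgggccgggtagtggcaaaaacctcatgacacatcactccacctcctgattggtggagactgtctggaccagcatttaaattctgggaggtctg
The *Cftr* window held 6 GC boxes, 3 of them overlapping in 1 run, and the *Krt7* window held 4, while the *Spp1* window held none. A GC box was found in 32.74% of all 32851 windows of this length. GC content was 76.4% for *Cftr*, 66.0% for *Krt7* and 43.6% for *Spp1*, against a median of 52.4% over all windows. The *Spp1* window held a TATAAA 211 bases and a GTTAAT 194 bases before the start, letters found in 12.37% and 6.43% of windows. Neither the TEAD letters GGAATG nor the SOX letters ACAATG occurred in a window of the 5 markers. These matches describe the sequence only.

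*Trp53*, the gene deleted, had 147 ± 47.7 normalised counts in FL (SD, n = 4) and 798 ± 98.2 in WT (SD, n = 3), with no overlap between genotypes. Its log2 fold change was -2.47 (adjusted p = 0.0447, limma on log2(normalised count + 1) with Benjamini-Hochberg adjustment). It and *Eda2r* were the 2 genes of 12545 (0.0159%) with an adjusted p below 0.05. A normalised count is a read count divided by a factor for library depth, and 1 read was worth 0.812 to 1.38 normalised counts in these libraries of an estimated 11.9 to 19.5 M reads on genes.

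Some libraries stood apart before any marker was compared. WT replicates 1 and 2 held many intestinal transcripts, and WT replicate 3 held a few more than the FL livers. Of 16 intestinal genes in the table, 4 (*Fabp2*, *Lgals4*, *Krt20* and *Tff3*) held at least 8 normalised counts in every liver. The other 12, set apart after the data were seen, were near 0 in FL, and this choice adds to their contrast between genotypes. Their summed level was 5 to 11 normalised counts in FL, 30 in WT replicate 3, 522 in WT replicate 1 and 394 in WT replicate 2. All 12 were higher in WT replicates 1 and 2 than in any other liver, and 5 of the 12 were at 0 in every FL liver. With all 16 genes summed, the 3 most abundant being *Fabp2*, *Lgals4* and *Tff3*, the ranges were 1131 to 2366 in FL and 938 to 2413 in WT. WT replicate 2 was also the highest liver for 11 of 12 macrophage genes (sum of 15432 against 6617 to 9121 in the other livers) and for 12 of 14 proliferation genes (2272 against 606 to 928). Albumin and the other 8 hepatocyte genes summed to 1494212 to 2002384 in FL and 1304861 to 1560951 in WT, ranges that overlap. Of these 9 genes, 8 had a positive and 1 a negative log2 fold change (6475 of all 12545 genes tested were positive), and none passed the threshold. Among other bile duct genes, the abundant *Clu* (also made by hepatocytes) and *Aqp1* were present throughout. *Sctr*, *Ggt1*, *Fxyd3* and *Grhl2* held at most 4, 4, 6 and 6 normalised counts in any liver, and *Cftr* was at or near 0.

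None of the 7 tested markers passed the threshold in FL against WT, with an adjusted p of 0.999 for each. In limma before adjustment, *Krt7* and *Krt19* were lower and *Sox9* was higher in FL with a p-value below 0.05. Of all genes tested, 1.6% were lower in FL at that level and 1.59% were higher. These 3 markers were also those whose genotypes did not overlap among the tested 7. FL values all lay below WT values for *Krt7* and *Krt19*, as for 1.98% of all genes tested, and all above them for *Sox9*, as for 2.77%. The median log2 fold change of the 7 was -0.705, with 6 negative and 1 positive, against 0.01 over all genes tested.

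**Figure D1:**
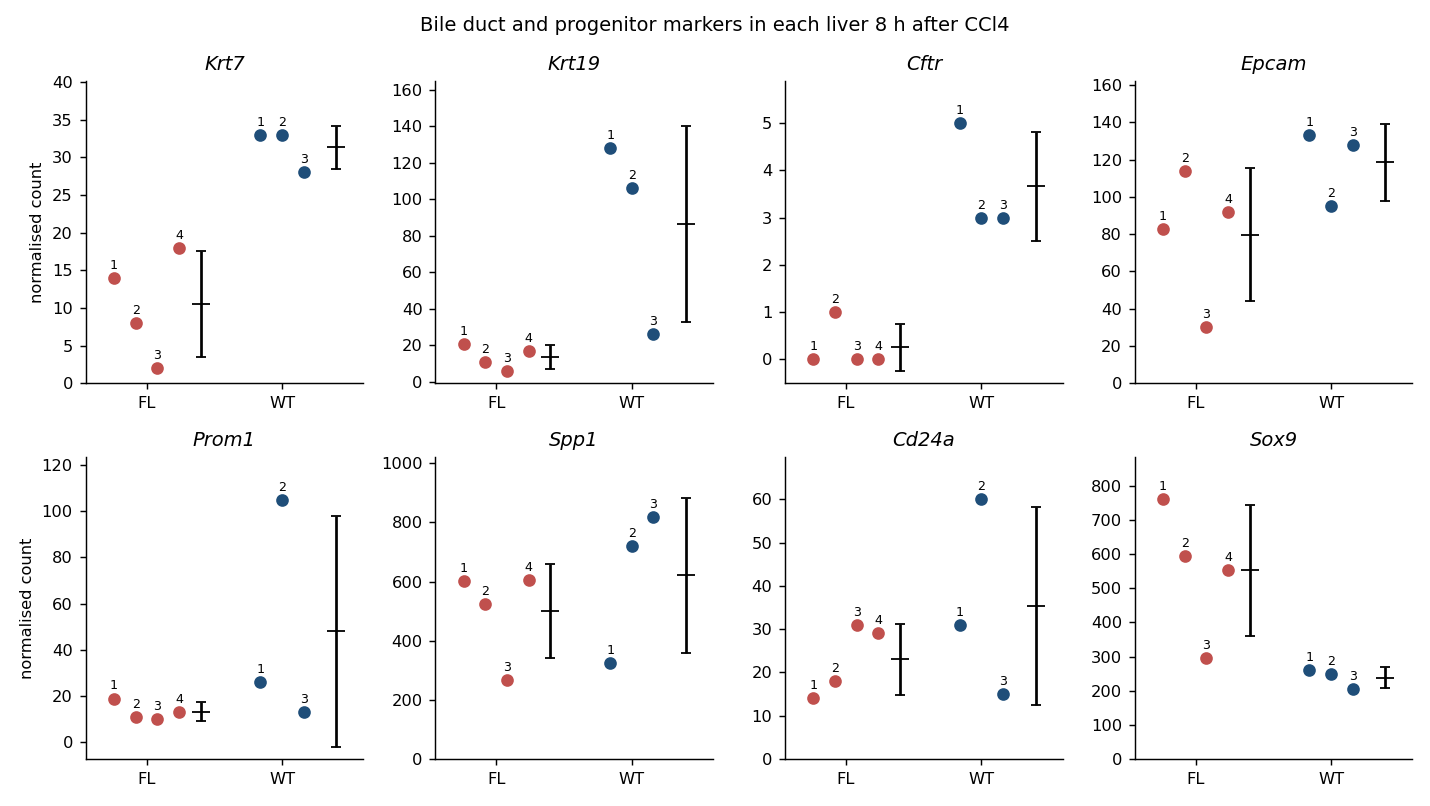
Normalised count of each marker (vertical axis, linear, own scale in each panel) in each liver, FL in red and WT in blue, with the replicate number above each point and the mean ± SD of the genotype as a black mark beside the points. *Krt7* lies between 2 and 18 in FL and between 28 and 33 in WT, and *Sox9* lies between 297 and 763 in FL and between 204 and 261 in WT.

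*Krt19* (chr11:100140810-100148665, minus strand, GRCm38) encodes the small type I keratin of ductal and other simple epithelia. The FL livers held 21, 11, 6 and 17 normalised counts and the WT livers 128, 106 and 26, in replicate order. All FL values were below all WT values, but WT replicate 3 was close to the FL livers and far from the other WT livers. The means were 13.8 ± 6.60 in FL (SD, n = 4) and 86.7 ± 53.7 in WT (SD, n = 3), a log2 fold change of -2.41 (SE 0.62, 95% interval -3.84 to -0.98). The unadjusted p was 0.00464 in limma, and the exact permutation p, two-sided and over 35 assignments of the livers to genotypes, was 0.0286, the smallest possible.

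The high *Krt19* values were in the 2 livers with the highest sums of the 12 intestinal genes. WT replicate 3 was not free of these genes, with a sum of 30 normalised counts against 5 to 11 in FL. WT replicates 1 and 2 averaged 117 normalised counts of *Krt19*, 4.5 times WT replicate 3 and 8.51 times the FL mean, whereas WT replicate 3 was 1.89 times the FL mean. Without those 2 livers the log2 fold change was -0.9995 (SE 0.68, unadjusted p = 0.183, with 1 WT liver left, assumed to vary as the FL livers do). With the log2 of the summed level of all 16 intestinal genes as a covariate it was -2.36 (SE 0.61, unadjusted p = 0.00442 in limma). That sum was 2366 in FL replicate 3 and 938 in WT replicate 3, where the 12 genes summed to 11 and 30. The 16-gene sum did not follow the 12 genes, so this fit does not adjust for them. With the log2 of the summed level of the 12 genes, a covariate added after the data were seen that itself separates the genotypes, the log2 fold change was -0.48 (SE 1.03).

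*Krt7* (chr15:101411043-101430313, plus strand), the type II keratin that pairs with *Krt19* in bile duct cells, held 14, 8, 2 and 18 normalised counts in FL and 33, 33 and 28 in WT. All FL values were below all WT values, the FL livers spread 9-fold, and the WT livers were close together. The means were 10.5 ± 7.0 (SD, n = 4) and 31.3 ± 2.89 (SD, n = 3), a log2 fold change of -1.78 (SE 0.62, 95% interval -3.21 to -0.36, unadjusted p = 0.0205 in limma). The exact permutation p (two-sided) was 0.0571.

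Unlike *Krt19*, *Krt7* had like values in WT replicates 1 and 2 (mean 33.0) and in WT replicate 3, a ratio of 1.18. Its log2 fold change without WT replicates 1 and 2 was -1.63 (SE 0.98). Without FL replicate 3, the liver with 2 normalised counts, it was -1.24 (SE 0.36). The FL values correspond to few reads, since 3 reads were worth 2.44 to 4.15 normalised counts.

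*Cftr* (chr6:18170687-18322768, plus strand), the chloride channel of the cholangiocyte apical membrane, was at the limit of detection. FL livers held 0, 1, 0 and 0 normalised counts and WT livers 5, 3 and 3. These are 1 read in the 4 FL livers together and 12 reads in the 3 WT livers. Per read sequenced, the WT to FL ratio was 15.2 with a 95% interval of 2.25 to 649, from an exact (Clopper-Pearson) binomial interval that covers counting error only. In FL replicates 1, 3 and 4, a normalised count of 0 allows up to 2.44 to 3.24 normalised counts at their depths, so absence in FL is not shown. The genotypes did not overlap. The intestine is another site of *Cftr* expression, and the part of the intestinal transcripts of the WT livers in these values was not tested.

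*Epcam* (chr17:87635979-87651129, plus strand), a homophilic adhesion molecule of cholangiocytes and hepatic progenitors, held 83, 114, 30 and 92 normalised counts in FL and 133, 95 and 128 in WT. The genotypes overlapped, as FL replicate 2 was above WT replicate 2, and FL replicate 3 was far below the rest. The means were 79.8 ± 35.6 (SD, n = 4) and 119 ± 20.6 (SD, n = 3), a log2 fold change of -0.70 (SE 0.43, 95% interval -1.69 to 0.28, exact two-sided permutation p = 0.171).

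*Prom1* (chr5:43993620-44102032, minus strand), which encodes the membrane glycoprotein CD133 used to isolate progenitor cells, held 19, 11, 10 and 13 normalised counts in FL and 26, 105 and 13 in WT. The WT mean of 48.0 ± 49.8 (SD, n = 3) was carried by WT replicate 2, and WT replicate 3 was equal to FL replicate 4. The FL mean was 13.3 ± 4.03 (SD, n = 4). The log2 fold change was -1.30 (SE 0.64, exact two-sided permutation p = 0.0857), -0.49 (SE 0.41) without WT replicate 2 and -0.01 (SE 0.53) without WT replicates 1 and 2.

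*Cd24a* (chr10:43578284-43584265, plus strand), a small glycosyl-phosphatidylinositol-anchored surface protein of progenitors and many blood cells, held 14, 18, 31 and 29 normalised counts in FL and 31, 60 and 15 in WT. The highest liver was again WT replicate 2, and the genotypes overlapped. The log2 fold change of -0.46 (SE 0.49, exact two-sided permutation p = 0.514) became 0.02 (SE 0.43) without WT replicate 2. B cell genes, which mark a blood lineage that carries CD24, were also highest in WT replicate 2 (5 of 5 genes, *Cd22* and *Cd79b* among them). They summed to 263 normalised counts there, 41 to 155 in FL, and 56 and 32 in WT replicates 1 and 3. The part of these cells in the *Cd24a* values was not tested.

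*Spp1* (chr5:104435118-104441050, plus strand) encodes osteopontin, a secreted matrix protein made by cholangiocytes and by macrophages. FL livers held 601, 525, 268 and 604 normalised counts and WT livers 324, 720 and 818. WT replicate 1 was below 3 of the 4 FL livers and the genotypes overlapped. The log2 fold change was -0.28 (SE 0.39, 95% interval -1.18 to 0.63, exact two-sided permutation p = 0.514). The 12 macrophage genes summed to 15432 normalised counts in WT replicate 2, where *Spp1* was 720, and their part in the *Spp1* values was not tested. The annotation holds a second gene, *Gm42793*, on the same strand, which shares 13.5% of the 36-base stretches of *Spp1*, and its counts were not analysed here.

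*Sox9* (chr11:112782224-112787760, plus strand), the transcription factor that marks bile duct cells and periportal hybrid hepatocytes, stood on the other side. FL livers held 763, 596, 297 and 555 normalised counts and WT livers 261, 249 and 204. All FL values were above all WT values, with FL replicate 3 the nearest to WT. The means were 553 ± 193 (SD, n = 4) and 238 ± 30.1 (SD, n = 3), 2.32 times as high in FL. The log2 fold change was 1.14 (SE 0.30, 95% interval 0.46 to 1.83, unadjusted p = 0.00494 in limma), and the exact two-sided permutation test gave p = 0.0571.

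The WT livers with intestinal transcripts did not stand apart for *Sox9*, with a mean of 255 normalised counts in WT replicates 1 and 2 against 204 in WT replicate 3. The log2 fold change was 1.35 (SE 0.44) without those 2 livers. Leaving out FL replicate 3 and WT replicate 2 together, an alternative chosen after the data were seen, gave 1.45 (SE 0.16) and an adjusted p of 0.0270 in limma, at which *Sox9* was the 1 marker past the threshold. Without FL replicate 3 alone the adjusted p was 0.293. *Sox9* and *Krt19* lie on the chromosome of the deleted gene, 43.2 and 30.6 Mb from *Trp53*, and any effect of linked strain sequence was not tested.

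**Figure D2:**
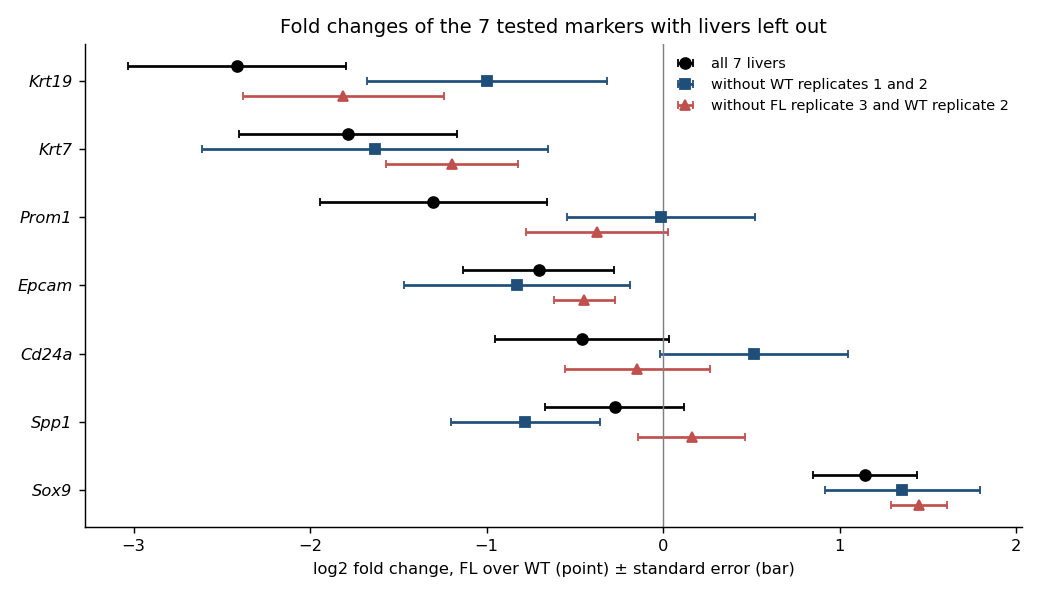
Log2 fold change of FL over WT (horizontal axis) for the 7 tested markers, as points with standard error bars, fitted on all 7 livers, without WT replicates 1 and 2, and without FL replicate 3 and WT replicate 2. *Sox9* stays above 1 in all 3 fits, *Krt19* moves from -2.41 to -0.9995 without WT replicates 1 and 2, and *Spp1* and *Cd24a* each change sign in 1 of the fits.

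FL replicate 3 was the lowest FL liver for 6 of the 8 markers, *Krt7*, *Krt19*, *Sox9*, *Epcam*, *Spp1* and *Prom1*, and the highest for 1, *Cd24a*. It was also the FL liver with the highest level of 10 of 12 macrophage genes and 12 of 14 proliferation genes. The shares of all genes lowest or highest in FL replicate 3 were not counted, so these counts are not read as particular to the markers or lists. Across the 7 livers, 14 of the 21 pairs of tested markers had a positive Pearson r. *Krt7* and *Krt19* were the closest pair (r = 0.855, Spearman's rho = 0.955), and *Krt19* and *Sox9* the most opposed (r = -0.446, rho = -0.536). These values mix the genotype difference with differences among livers and are given as a description of 7 livers.

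Per kilobase of the principal mRNA, *Spp1* had the highest level in both genotypes, 331 ± 105 normalised counts per kb in FL (SD, n = 4) and 412 ± 174 in WT (SD, n = 3). *Sox9* followed in FL with 134 ± 46.6 per kb and overlapped with *Spp1* in range, although *Spp1* was above *Sox9* in each of the 4 FL livers. *Epcam* (39.1 per kb), *Cd24a* (12.7), *Krt19* (8.73), *Prom1* (3.62) and *Krt7* (2.57) came next in FL, each overlapping in range with the next. In WT, *Spp1* was apart from the rest, while *Epcam* (58.2 per kb), *Sox9* (57.6) and *Krt19* (55.0) overlapped and could not be ordered, followed by *Cd24a* (19.5), *Prom1* (13.1) and *Krt7* (7.65), which also overlapped with their neighbours. *Cftr* was last in both genotypes, at 0.04 and 0.58 per kb, and apart from *Krt7* in every liver.

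**Figure D3:**
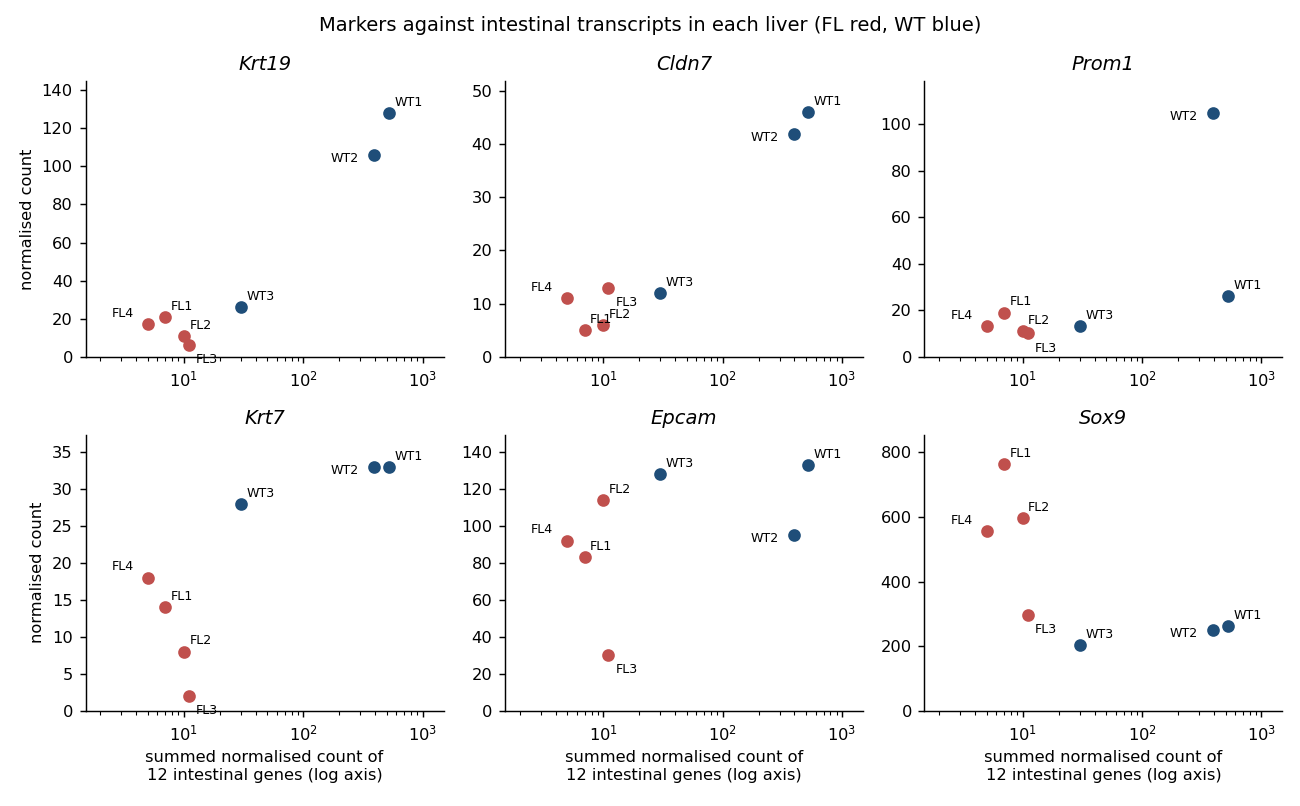
Normalised count of 6 genes (vertical axes, linear) against the summed normalised count of 12 intestinal genes (horizontal axis, log scale), with 1 point for each liver, FL red and WT blue. *Krt19* and *Cldn7* are high in WT replicates 1 and 2, where the intestinal sum is 522 and 394, whereas *Krt7* and *Sox9* are alike in all 3 WT livers.

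Other genes of the bile duct were taken from a list of 36, of which 35 were in the table and 30 were tested. None passed the threshold, 24 had a negative and 6 a positive log2 fold change, and their median was -0.18. The 3 most abundant, *Clu* (clusterin, a secreted chaperone also made by hepatocytes), *Tm4sf4* and the water channel *Aqp1*, had log2 fold changes of 0.05, -0.002 and -0.04. In limma, no gene was higher and 4 of 30 were lower in FL at an unadjusted p-value below 0.05 (1.6% of all genes tested were lower at that level), all named here after their values were seen. They were *Tspan8* (log2 fold change -2.11, SE 0.68), the tight-junction gene *Cldn7* (-1.70, SE 0.55), the epithelial transcription factor *Ehf* (-1.50, SE 0.44) and the keratin *Krt23* (-1.25, SE 0.35). *Tspan8*, *Ehf* and *Cldn7* averaged 4.75, 6.5 and 8.75 normalised counts in FL and met the filter of 10 only through their WT values. A gene with an FL mean below 10 passes this filter only if its WT mean is higher.

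In WT replicates 1 and 2, where the 12 intestinal genes were highest, *Cldn7* averaged 3.67 times WT replicate 3. The same ratio was 2.59 for *Ehf* and 2.18 for *Tspan8*. *Cldn7* held 46 and 42 normalised counts in WT replicates 1 and 2 and 12 in WT replicate 3, against 5 to 13 in FL, and it lies 0.37 Mb from *Trp53*. *Krt23* held 56, 106 and 80 in WT and 40, 36, 18 and 41 in FL, so that the mean of WT replicates 1 and 2 was 1.01 times WT replicate 3. *Krt23* lies 29.9 Mb from *Trp53* on the same chromosome. Among these 30, 2 genes (*Ehf* and *Krt23*) did not overlap between genotypes, both with FL below WT, as for 1.98% of all genes tested. Without WT replicates 1 and 2, the median of the list was -0.002 over 27 genes tested.

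Notch signalling, in which *Jag1* on portal cells activates *Notch2* on the fetal precursors and turns on *Sox9* and *Hes1*, directs cells towards the bile duct. Of 19 pathway genes, all were in the table and 18 were tested. None passed the threshold, 9 were negative and 9 positive, and the median log2 fold change was -0.005. *Ncstn*, a subunit of the protease that cleaves the receptor, and *Notch2* were among the most abundant, with log2 fold changes of 0.02 (SE 0.09) and -0.13 (SE 0.21). *Jag1* and *Hes1*, named for their place beside *Sox9* after their values were seen, had 0.20 (SE 0.74) and -0.05 (SE 0.17). *Jag1* was 131 in FL replicate 3 and 103 in WT replicate 2 against 411 to 648 in the other 5 livers.

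Of 14 progenitor and oncofetal genes, 11 were in the table and 7 were tested. None passed the threshold, 6 were negative and 1 positive, and the median was -0.51, or -0.13 without WT replicates 1 and 2. The most abundant were *Tnfrsf12a*, the receptor of the progenitor mitogen TWEAK, with a log2 fold change of 0.28 (SE 0.36), *Cd44*, a hyaluronan receptor, with -0.83 (SE 0.48), and *Fgfr2*, a fibroblast growth factor receptor, with -0.49 (SE 0.31). *Cd44* held 415 normalised counts in WT replicate 2 and 67 to 138 in the other 6 livers.

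**Figure D4:**
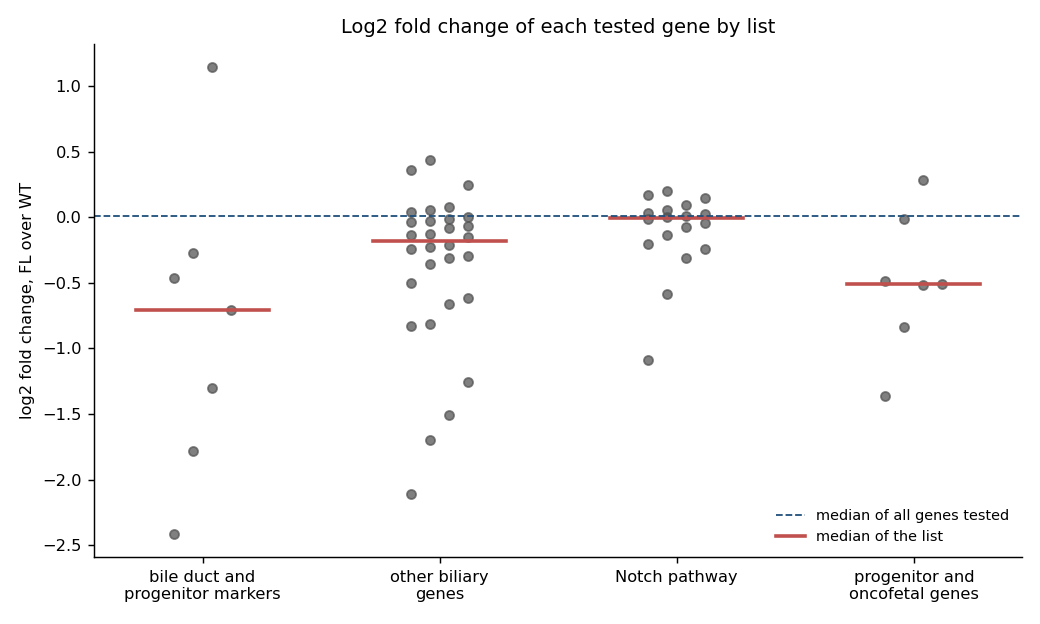
Log2 fold change of FL over WT (vertical axis) of each tested gene in 4 lists, with 1 grey point for each gene, a red line at the median of the list and a dashed blue line at the median of all 12545 genes. Medians are -0.705 for the bile duct and progenitor markers, -0.18 for other biliary genes, -0.005 for the Notch pathway and -0.51 for progenitor and oncofetal genes.

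The genes whose levels ran most like each marker over the 7 livers were found by Pearson r of log2(normalised count + 1). For *Krt19* they were *Tspan1* (r = 0.974), *Fcgbp* (r = 0.967) and *Pask* (r = 0.959). *Fcgbp*, which encodes a protein of goblet cell mucus and is on the intestinal list, held 3, 3, 1 and 2 normalised counts in FL and 201, 129 and 10 in WT. For *Krt7* they were *Ndc1* (r = 0.969), a nuclear pore gene, *Ralgps1* (r = 0.951) and *Eif2d* (r = 0.944). *Ndc1* held 220, 199, 175 and 244 normalised counts in FL and 255, 273 and 273 in WT, a far smaller spread than that of *Krt7*.

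For *Sox9* the closest genes included *Acer2* (r = 0.967), an alkaline ceramidase, and *Gprin3* (r = 0.964). *Acer2* held 473, 453, 396 and 463 normalised counts in FL and 386, 350 and 353 in WT, with every FL liver above every WT liver. For *Cd24a* they were *Sox5* (r = 0.997), *Tbx2* (r = 0.991) and *Nsg1* (r = 0.990), each highest in WT replicate 2. The genes nearest to *Prom1*, *Coq3* (r = 0.978), *Nav2* (r = 0.973) and *Gnptab* (r = 0.970), were also highest in WT replicate 2. *Epcam* ran closest to *Akr1c13* (r = 0.973), *Crlf3* (r = 0.958) and *Zc3hav1l* (r = 0.955), all lowest in FL replicate 3. *Spp1* ran closest to *Ogg1* (r = 0.942), *Zcwpw1* (r = 0.939) and *Mmd* (r = 0.936), also lowest in FL replicate 3. Each r is picked as the highest among all 12545 tested genes on 7 livers and carries no test.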

How the data were processed

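Liver RNA of the 4 FL and 3 WT mice was sequenced by the authors from TruSeq Stranded mRNA libraries as paired-end reads of 36 bases. Per the labels and the methods, the authors used bcl2fastq 2.15.0.4, Tophat 2.0.13, Bowtie 2.2.6.0, HTSeq 2.2.4.0 and DESeq2 in R 3.4.2, with an Ensembl release 75 genome printed under a human name. featureCounts is also listed. The strand setting of the counting is not given in the sources used here, so reads of antisense partners could be mixed with those of *Krt7*, *Prom1* and *Cftr*. The deposited values are counts divided by size factors and rounded by the authors, handled as a score without a fixed unit and not as raw counts. The table had 14988 rows for 14851 genes, of which 120 were listed more than once with the same values and used once. No column of values was left unused (0).

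Symbols and coordinates came from GENCODE vM21 (GRCm38). Shared 36-base stretches between transcripts covered 13.5% of *Spp1*, 6.71% of *Prom1*, 4.33% of *Cd24a* (mostly with a processed pseudogene), 2.25% of *Krt7*, 1.25% of *Cftr* and 0.54% of *Sox9*, and none of *Krt19* or *Epcam*. RefSeq promoters of GRCm38.p6 matched 5 of 8 markers, and both strands were searched for 8 motifs. Beside those spelled out above, the RBPJ site of Notch signalling was searched for as TGGGAA. The AP-1 site was written as TGANTCA and the E-box as CACGTG, and matches could overlap. AP-1 and RBPJ letters were found in the *Prom1* windows alone.

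FL was compared with WT by limma 3.58.1 in R 4.3.3 on log2 of the normalised count plus 1, with a trend in the variance prior and Benjamini-Hochberg adjustment and a threshold of 0.05. The filter of 10 normalised counts was on the average of the 7 livers and left 12545 genes. The scale understates changes of low genes. The limma step was checked on simulated data with 200 changed genes, where 43% of genes changed by log2 1 were recovered. For genes changed by log2 2 the share was 86.5%. Noise was drawn independently for each gene, whereas FL replicate 3 and WT replicate 2 shared deviations across genes. These shares check the fitting step and are not the power of the real comparison. The exact two-sided permutation test used the absolute difference of mean log2 values over 35 assignments, with a smallest p of 0.0286. The value of 1 read was fitted from the spacing of low values, and 3 reads were taken as the floor of detection. Nothing states how tissue pieces were taken beyond 1 library per mouse. Tables were made with Python 3.11.15, pandas 2.3.3, NumPy 2.4.6, SciPy 1.17.1 and Matplotlib 3.10.9.

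The markers and gene lists were chosen with earlier results of these data known. Named genes were the 8 markers, *Trp53*, the 3 most abundant genes of a list and any list gene past the threshold, and for each tested marker the 3 other genes with the highest r. A few genes that this rule names are not reported here. Lists of exocrine pancreas (2 of 14 genes in the table, summed 112 to 245 normalised counts in all livers, *Cela1* the highest), mesothelium (11 to 45), neutrophil (27 to 93), stellate cell (2805 to 6087, highest in WT replicate 2) and erythroid genes (2803 to 3624 in FL, 2320 to 2818 in WT) were also summed.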

Additional observations from a re-analysis of the deposited data

Results flagged for a closer look

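Among the 4 FL livers, 21 measures were examined for 1 liver far from the other 3 by Dixon's gap test, and 3 had one. Chance gives about 1.1 for independent measures on a continuous scale. These measures are not of that kind, and the intestinal sum entered both with 16 and with 12 genes, so the 2 numbers cannot be compared. *Cftr* was at 1 normalised count in FL replicate 2 and at 0 in the other FL livers, a difference of 1 read that always meets this rule. The summed level of 16 intestinal genes was 2366 normalised counts in FL replicate 3 and 1131 to 1199 in the other FL livers. *Tff3*, a trefoil peptide, held 1083 normalised counts in FL replicate 3 and 8 to 63 in the other FL livers, while the 12 intestinal genes that were near 0 in FL summed to 11 in it. The summed level of 6 stellate cell genes was 3497 in FL replicate 3 and 3055 to 3120 in the other FL livers. Groups of 3 livers were not examined in this way.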

How the results depend on the processing

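The number of markers past the threshold was 0 in 20 of 21 alternatives and 1 (*Sox9*, log2 fold change 1.45) without FL replicate 3 and WT replicate 2 together, a choice made after the data were seen. *Krt7*, *Krt19* and *Epcam* kept a negative and *Sox9* a positive log2 fold change under every alternative in which they were tested. With the 12 intestinal genes as the covariate, these were -2.12 (SE 1.32), -0.48 (SE 1.03), -1.09 (SE 0.90) and 1.31 (SE 0.63), in that order. In that fit 0 of the 7 tested markers had an unadjusted p below 0.05 in limma, against 3 in the main fit. With livers left out 1 at a time, log2 fold changes ranged from -3.12 to -1.99 for *Krt19*, -2.12 to -1.24 for *Krt7*, 0.96 to 1.41 for *Sox9*, -1.95 to -0.49 for *Prom1*, -0.93 to -0.30 for *Epcam*, -0.69 to -0.0008 for *Spp1* and -0.95 to 0.0154 for *Cd24a*. The sign changed for *Spp1* (0.16) without FL replicate 3 and WT replicate 2, for *Cd24a* without WT replicate 2 (0.0154) and without WT replicates 1 and 2 (0.52), and with the 12 intestinal genes as a covariate, added after the data were seen, for *Prom1* (0.45) and *Cd24a* (1.01). With all 16 intestinal genes as the covariate, as planned, the signs held (*Prom1* -1.15, *Cd24a* -0.28), but the 16-gene sum did not follow the 12 genes and cannot adjust for them. The cause was not tested. The number of markers whose genotypes did not overlap was 3 (4.76% of all genes did not overlap), and 1 with every liver at 10 or more (5 markers tested) or an average of 50 or more (3 tested), where fewer genes were tested, 5 without WT replicates 1 and 2 (where 36.5% of all genes did not overlap), and 3 to 4 with 1 liver left out, where 6.46% to 19.8% of all genes did not overlap, most without WT replicate 2.

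The number of all genes past the threshold was 2, and 0 with a pseudocount of 5 (404 at an unadjusted p below 0.05 in limma), every liver at 10 or more (356), an average of 50 or more (316), no trend (465) or without WT replicates 1 and 2 (346). It was 2 with the 16-gene covariate, 1 with quantile normalisation or the 12-gene covariate, 6 without FL replicate 3 and WT replicate 2, and 0 to 5 with 1 liver left out. FL and WT replicate numbers did not pair the livers, with correlations of same-numbered deviations from -0.661 to 0.438. Under a replicate block 0 genes passed (110 unadjusted), and *Krt19*, *Krt7* and *Sox9* had log2 fold changes of -2.55, -2.12 and 1.11. FL replicate 1 deviated most like WT replicate 1, FL replicate 2 most like WT replicate 3, and FL replicate 3 most like WT replicate 2, the strongest of these correlations (0.765) and the pair left out together above. Depth limits *Cftr*, which has no fold change in these fits, and the FL values of *Krt7*. Count tests across genes were not run, since in libraries where 1 read is worth less than 1 normalised count, rounding gives some pairs of neighbouring read numbers the same value. Each *Cftr* value matched 1 read number only.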
